A study of Mus musculus with 12 samples.

Results

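The nuclear genes for the oxidative phosphorylation machinery were examined in RNA-seq libraries of mouse hematopoietic stem and progenitor cells that had lost p300, Tet2 or both. Members were the rows of the count matrix whose symbol begins with Nduf, Uqcr, Atp5, Cox4, Cox5, Cox6, Cox7 or Cox8, together with Sdha, Sdhb, Sdhc and Sdhd. Of 96 such rows, 8 were left out. Cox6a2 was excluded by name, 4 rows carried pseudogene symbols (Atp5l-ps1, Atp5l-ps2, Atp5k-ps2 and Atp5l2-ps), and Cox8b, Cox8c and Cox7b2 had fewer than 10 counts in more than 9 libraries. Cox6a2 itself met that count rule, with at least 10 counts in 11 libraries. The remaining 88 genes were taken from a matrix of 46517 rows. They were chosen with earlier results of these data known, so the choice was not blind to differences between genotypes. They comprised 36 subunits of complex I, 8 complex I assembly factors, 4 subunits of complex II, 8 of complex III, 16 of complex IV and 16 of complex V. Cytochrome c1, a subunit of complex III, falls outside the name patterns and was read with other genes of the pathway.

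Oxidative phosphorylation is carried out by 5 protein complexes of the inner mitochondrial membrane. Complexes I and II pass electrons from NADH and succinate to ubiquinone, complex III passes them to cytochrome c, complex IV reduces oxygen, and complex V, the ATP synthase, uses the resulting proton gradient to make ATP. Most subunits are encoded in the nucleus and imported, while a small set is encoded by mitochondrial DNA, so both genomes have to supply each complex except complex II. Hematopoietic stem cells are known to rely largely on glycolysis at rest and to engage mitochondrial respiration when they begin to differentiate.

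The libraries came from sorted lineage-negative Sca1+ c-Kit+ (LSK) bone marrow cells of mice aged 8 to 10 weeks, collected 2 weeks after poly(I:C), the agent that switches on the interferon-inducible Mx1-Cre transgene. There were 4 groups of 3 biological replicates, namely WT, p300KO (Ep300 floxed and deleted), Tet2KO (germline Tet2-/-) and p300KO_Tet2KO (both). The submitted design describes all groups as Mx1-Cre+, whereas the study's methods assign the transgene to the p300-deleted groups and describe the others as floxed Ep300 without Cre, so whether the controls expressed Cre cannot be stated here. Mx1-Cre also acts outside blood cells, deletion is measured here only as RNA of the cell mixture, and in such bulk samples fewer cells of a type and less RNA per cell cannot be told apart.

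Levels are given in CPM, counts scaled to a common library size. The excluded Cox6a2 averaged 4.22 CPM in WT, 1.15 in p300KO, 3.27 in Tet2KO and 0.37 in p300KO_Tet2KO. It is not part of the member results below. Total counts ranged from 18773903 to 79573664 per library. Ep300 RNA followed its label and was lower in p300KO than in WT, by -0.63 on the log2 scale (SE 0.11, adjusted p = 0.0065, edgeR) and lower in p300KO_Tet2KO than in Tet2KO (-0.95, SE 0.11, adjusted p = 5.46e-04). Tet2 RNA read 136, 139 and 120 CPM in WT and 56.6, 38.6 and 48.1 CPM in Tet2KO, but 128, 101 and 145 CPM in the libraries labelled p300KO_Tet2KO, a log2 difference from WT of -0.08 (SE 0.15, adjusted p = 0.834, edgeR). Tet2 RNA therefore did not follow the label in that group, and every result below for p300KO_Tet2KO is a result for the libraries so labelled. Of the 6 genes listed for the LSK gate, all were above 1 CPM on average in each group, and of 8 lineage genes 3 or 4 were. A list of 6 granulocyte and monocyte genes summed to 1509 to 3118 CPM in the other 9 libraries and to 2433 to 5333 CPM in the 3 Tet2KO libraries. Sex-linked RNA was not balanced between groups. WT libraries held Y-linked RNA (257, 276 and 273 CPM) and at most 2.79 CPM of Xist. In replicate 3, p300KO had 5776 CPM of Xist and 0.05 of Y-linked RNA, and Tet2KO had 6665 and 0. In p300KO_Tet2KO, Xist read 6452, 3.01 and 8103 CPM and Y-linked RNA 0.05, 278 and 0.04 CPM. Differences between groups are thus partly mixed with sex. Tet2KO replicate 1 held both Xist and Y-linked RNA. The mitochondrially encoded share was 0.503% of counts in p300KO_Tet2KO replicate 2 against 1.18% to 1.53% in the other 11 libraries.

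The promoters of the module are described first, and no link between them and the levels given below was tested. RefSeq promoter windows (GRCm38.p6, 250 bases before to 50 after the transcription start) were found by symbol for 71 of the 88 genes, giving 76 windows. The 8-base core of the ETS family site read by GABPA (CCGGAAGT), a YY1 site with its usual flank (AAGATGGCG) and the site of the respiratory gene activator NRF1 (GCGCNTGCG) were searched on both strands. None of these 3 strings contains another. The NRF1 string was present in 26 of the 76 windows (34.2%) and in 6.31% of all 32851 windows. YY1 was present in 9.21% against 1.40%, ETS in 6.58% against 3.89%, and any of the 3 in 46.1% against 10.7%. The shorter SP1 (GGGCGG) and CCAAT strings were present in 42.1% of member windows each, against 35.7% and 37.4% of all windows. The median GC content was 58.0% in member windows and 52.7% in all windows, and its part in these shares was not tested.

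With overlapping matches counted separately, 29 NRF1 matches lay before the transcription start, 10 after it and 1 across it. A single site of Ndufa5 was counted in each of its overlapping windows, at -189 and at -25 bases. Of the 7 YY1 matches, 6 lay after the start, in Atp5j2, Ndufa9, Ndufc1, Ndufs4, Ndufs6 and Ndufs7. The 250 bases upstream of the start are printed for 4 members, with the matches in capitals. Ndufs5 is shown because it had the largest pairwise difference of any member with a mean level of at least 5 CPM, Sdha and Ndufb4 because they were among the members with the most NRF1 matches, 3 each, and Atp5h because it carried both an NRF1 and an ETS match. All 4 lie on the minus strand, Ndufs5 at chr4:123718187-123718436, Sdha at chr13:74350241-74350490, Ndufb4 at chr16:37654369-37654618 and Atp5h at chr11:115419920-115420169, and each is written 5′ to 3′ along the gene.
Ndufs5: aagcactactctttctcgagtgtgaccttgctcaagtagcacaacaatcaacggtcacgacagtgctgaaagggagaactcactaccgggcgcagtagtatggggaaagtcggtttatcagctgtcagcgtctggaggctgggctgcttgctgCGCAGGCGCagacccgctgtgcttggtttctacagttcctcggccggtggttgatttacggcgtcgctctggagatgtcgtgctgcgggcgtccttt
Sdha: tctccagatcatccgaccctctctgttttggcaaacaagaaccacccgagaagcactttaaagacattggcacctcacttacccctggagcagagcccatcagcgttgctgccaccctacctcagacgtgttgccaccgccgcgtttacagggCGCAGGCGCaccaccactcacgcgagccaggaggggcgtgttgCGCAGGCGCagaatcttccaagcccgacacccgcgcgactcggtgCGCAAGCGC
Ndufb4: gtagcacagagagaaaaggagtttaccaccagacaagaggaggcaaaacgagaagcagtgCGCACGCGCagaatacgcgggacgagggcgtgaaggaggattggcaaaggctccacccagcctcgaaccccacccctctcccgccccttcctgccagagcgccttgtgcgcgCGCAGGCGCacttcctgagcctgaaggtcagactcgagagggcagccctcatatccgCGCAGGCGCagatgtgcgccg
Atp5h: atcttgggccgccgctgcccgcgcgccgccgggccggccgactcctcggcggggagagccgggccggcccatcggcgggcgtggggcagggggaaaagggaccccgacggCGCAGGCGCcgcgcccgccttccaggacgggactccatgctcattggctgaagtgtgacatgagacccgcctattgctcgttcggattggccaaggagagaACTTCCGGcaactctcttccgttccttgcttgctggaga
Ndufs5 had 1 NRF1 match, which began 97 bases before its start. Sdha had 3, the first of which also began 97 bases before the start, and Ndufb4 had 3, the first beginning at 190 bases. In Atp5h the NRF1 match began 140 bases and the ETS match 39 bases before the start. All of these matches read the stated letters on the strand opposite to the printed one. A match is a description of these letters and does not show binding in LSK cells.

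All 88 genes matched protein-coding genes of the Gencode vM21 annotation (mm10) by identifier and lay on 19 chromosomes, 3 of them on the X. Only 15 had the same identifier version there, so exon lengths may differ from those of the annotation used for counting. The genes averaged between 0.116 and 716 CPM over the 12 libraries, and 81 of the 88 averaged at least 10 CPM. Levels were compared between genes per kilobase of merged exon. Merged exon takes in every annotated exon of a gene, so it can exceed the transcript length and lower the value. On the per-kilobase scale the alpha and beta subunits of the ATP synthase head were among the highest. Atp5a1 (alpha) stood at 203 and Atp5b (beta) at 169 CPM per kb, and Cox8a, the single nuclear Cox8 form retained, at 173. Assembly factors of complex I were low, with a median of 5.66 CPM per kb, against 23.5 for complex I subunits, 43.2 for complex II, 55.8 for complex III, 54.8 for complex IV and 45.2 for complex V.

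Where a subunit has alternative genes, the form known from most tissues was the abundant one. Cox4i1, the ubiquitous form of subunit 4, stood at 106 CPM per kb and Cox4i2, the form known from lung, at 0.884. Ndufa4, now counted as a complex IV subunit, stood at 73.5 CPM per kb and its hypoxia-inducible relative Ndufa4l2 at 0.106. Cox7a2 stood at 54.4 and Cox7a1, the heart and muscle form, at 0.387. Their relative Cox7a2l stood above both, at 93.2. The exception in scale was Cox6b2, known as a testis form of subunit 6b, which was detected in all 12 libraries at 12.9 CPM per kb beside 121 for Cox6b1. The 3 genes for subunit c of the ATP synthase were ordered Atp5g2 (84.7), Atp5g3 (54.8) and Atp5g1 (14.1 CPM per kb). In CPM they averaged 142, 120 and 69.2, over merged exons of 1675, 2181 and 4912 bases, so the divisor widened the gap. Cox7a1 and Ndufa4l2 lay just inside the count rule, with at least 10 counts in 5 and 3 libraries, and Cox4i2 was the next lowest. Those first 2 did not pass the filter on low counts, so 86 of the 88 genes were tested.

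**Figure D1:**
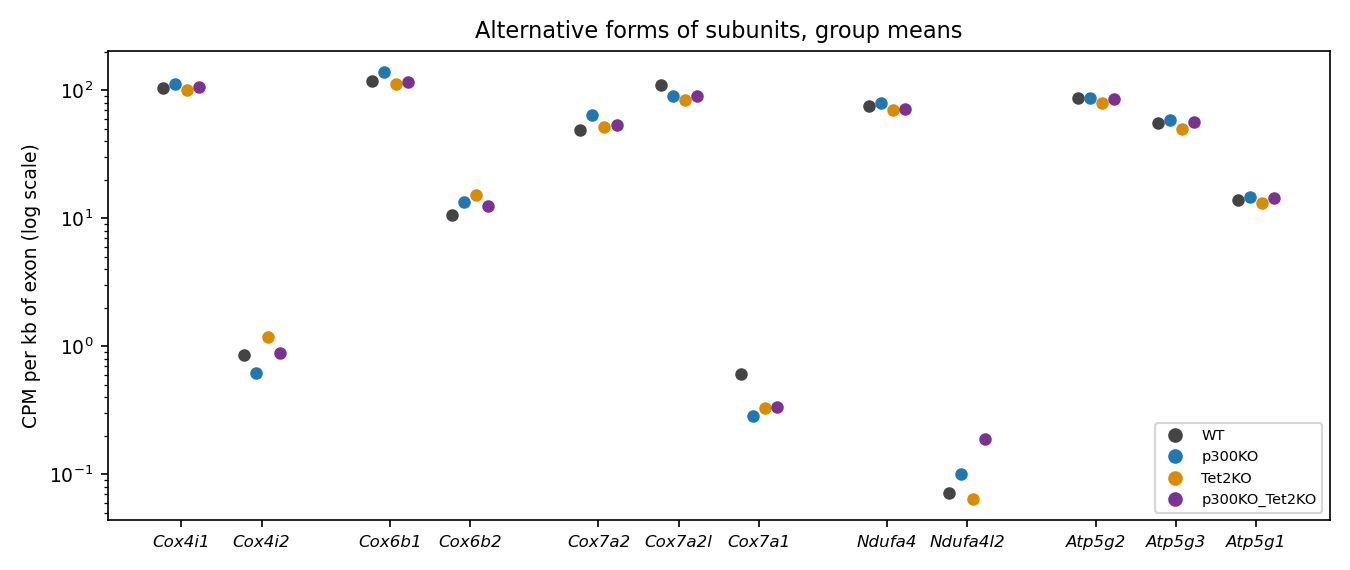
Group mean level (CPM per kb of merged exon, log axis) of subunits with alternative genes, 1 point per group of 3 libraries. Cox4i2, Cox7a1 and Ndufa4l2 lie far below their partner genes, and Cox6b2 lies between, at 12.9 CPM per kb on average.

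The first comparison asked how loss of p300 alone affected these genes. No member was called in p300KO against WT at an adjusted p under 0.05 (edgeR quasi-likelihood test, Benjamini-Hochberg adjustment over 17842 genes), where 3.91% of all genes tested were called. The median log2 fold change of the 86 members was 0.065, with 64 above 0, against a median of 0.014 and 52.4% above 0 over all genes and 0.004 and 51.2% over the 6924 genes of like level (16.6 to 129 CPM). At an unadjusted p under 0.05, 4 members were higher and 0 lower, beside 6.98% and 9.23% of all genes.

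Those 4 were Ndufs4, Uqcrh, Atp5l and Cox7a2. Ndufs4, an accessory subunit of complex I whose loss in mice models Leigh syndrome, read 34.1, 32.1 and 34.4 CPM in WT and 37.0, 44.8 and 41.9 CPM in p300KO. Its groups did not overlap, with a log2 fold change of 0.30 (SE 0.10, adjusted p = 0.153, edgeR). Cox7a2 read 40.4, 37.8 and 60.8 CPM in WT and 55.6, 68.3 and 57.2 CPM in p300KO, where WT replicate 3 lay within the p300KO range, and its log2 fold change was 0.39 (SE 0.18, adjusted p = 0.301, edgeR). Without WT replicate 3, Cox7a2 was called (log2 fold change 0.63, adjusted p = 0.0378, edgeR), the 1 member so called in a fit that called 3.66% of all genes. Atp5l, subunit g of the ATP synthase, read 71.9, 59.1 and 77.7 CPM in WT and 85.7, 87.3 and 82.7 in p300KO without overlap (0.29, SE 0.13, adjusted p = 0.262, edgeR). Uqcrh, the hinge protein of complex III, differed by 0.28 (SE 0.11, adjusted p = 0.21, edgeR). In all, 8 members lay wholly above WT and 0 wholly below, against 10.6% and 13.2% of all genes tested. The lowest member at 5 CPM or more was Cox7a2l, at -0.29 (SE 0.16, adjusted p = 0.429, edgeR).

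The second comparison asked the same of Tet2 loss. No member was called in Tet2KO against WT, where 0.633% of all genes were. Of the 86 members, 9 had a log2 fold change above 0, beside 50.1% of all genes and 39.2% of the 6924 genes of like level, and the member median was -0.12, against 0.0005 over all genes and -0.04 over those of like level. The median of complex I subunits was -0.13, of its assembly factors -0.16, of complex II -0.15, of complex III -0.11, of complex IV -0.09 and of complex V -0.13. Without Tet2KO replicate 1 the median over members was -0.04, with 21 of 86 above 0. At an unadjusted p under 0.05, 1 member was higher and 2 were lower, beside 7.42% and 5.52% of all genes.

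Ndufs5, a small accessory subunit of complex I (chr4, 123712710 to 123718202, mm10), had the lowest log2 fold change of the members in Tet2KO against WT. It read 22.4, 21.1 and 21.8 CPM in WT, 19.7, 21.7 and 22.3 CPM in p300KO, 10.6, 16.9 and 14.97 CPM in Tet2KO, and 18.6, 10.8 and 13.8 CPM in p300KO_Tet2KO. All 6 libraries labelled as lacking Tet2 were thus below all 6 libraries with Tet2 retained, a separation seen in 1 of 86 members and in 0.544% of all genes tested, and seen in the opposite direction in 0 members and 0.824% of all genes. Along the p300 label, 0 members separated in this way, against 1.46% of all genes higher and 2.82% lower. The log2 fold change of Ndufs5 was -0.62 in Tet2KO against WT (SE 0.19, adjusted p = 0.195, edgeR), -0.60 in p300KO_Tet2KO against WT (SE 0.19, adjusted p = 0.0797) and -0.57 in p300KO_Tet2KO against p300KO (SE 0.19, adjusted p = 0.315), so it was not called in any of them by edgeR. These comparisons share WT or p300KO_Tet2KO libraries. In p300KO_Tet2KO against WT, Ndufs5 was called by DESeq2 (-0.61, adjusted p = 0.0257) and by limma-voom (-0.76, adjusted p = 0.0262), and by edgeR without p300KO_Tet2KO replicate 1 (-0.83, adjusted p = 0.022). It was the 1 member called in each of these fits, which called 11.2%, 9.56% and 6.62% of all genes. Without p300KO_Tet2KO replicate 2 the same difference was -0.43 (adjusted p = 0.231, edgeR).

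Cox6b2 was the highest member in Tet2KO against WT. It read 9.49, 10.4 and 15.3 CPM in WT and 15.1, 13.5 and 21.5 CPM in Tet2KO, so that the groups overlapped, and its log2 fold change was 0.52 (SE 0.21, adjusted p = 0.33, edgeR). Cox7a2l read 158, 145 and 182 CPM in WT and 139, 107 and 126 CPM in Tet2KO, without overlap, and differed by -0.38 (SE 0.16, adjusted p = 0.354, edgeR). Sdhb, the iron-sulfur subunit of complex II, and Ndufaf1, a complex I assembly factor, were the other members that did not overlap, which made 4 wholly below WT and 0 wholly above, against 10.4% and 11% of all genes tested.

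**Figure D2:**
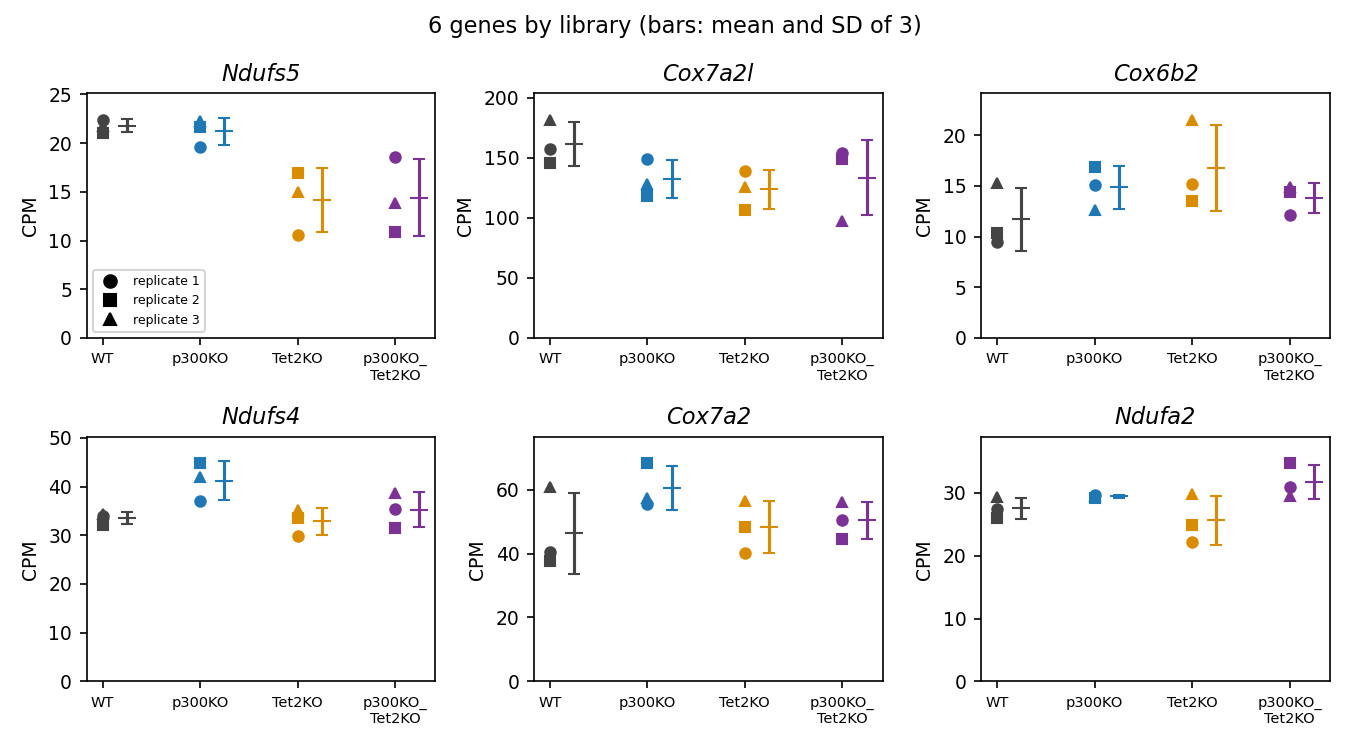
CPM by library of 6 members in the 4 groups (points, 3 replicates per group), with the group mean and SD beside them. For Ndufs5 all 6 libraries labelled as lacking Tet2 lie at or below 18.6 CPM and the other 6 at or above 19.7 CPM, while for the other 5 genes the groups overlap in most comparisons.

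In the libraries labelled p300KO_Tet2KO against Tet2KO, by label the comparison for what p300 loss adds to Tet2 loss, no member was called, beside 3.9% of all genes. Tet2 RNA itself was higher in the p300KO_Tet2KO libraries (log2 fold change 1.38, SE 0.16, adjusted p = 5.71e-04, edgeR). The groups thus differed in Tet2 RNA as well as in Ep300 RNA. The median log2 fold change of members was 0.097, with 73 of 86 above 0, against 0.022 and 53.4% above 0 over all genes and 0.033 and 58.4% over those of like level. At an unadjusted p under 0.05, 2 members were higher and 0 lower, beside 7.05% and 9.49% of all genes. The median was 0.002, with 45 above 0, without Tet2KO replicate 1. Ndufa2, an accessory subunit of complex I, read 22.2, 24.9 and 29.8 CPM in Tet2KO and 31.0, 34.7 and 29.6 CPM in p300KO_Tet2KO. Tet2KO replicate 3 lay within the p300KO_Tet2KO range, and the log2 fold change was 0.32 (SE 0.11, adjusted p = 0.158, edgeR). Without Tet2KO replicate 3, Ndufa2 was called (0.42, adjusted p = 0.0395, edgeR), the 1 member so called in a fit that called 4.29% of all genes. An exon of Tmco6 on the opposite strand overlaps Ndufa2, and reads of the pair may not be fully separable. Ndufs7, a core subunit of complex I that carries an iron-sulfur cluster, read 33.2, 37.1 and 38.5 CPM in Tet2KO and 40.3, 46.3 and 40.5 CPM in p300KO_Tet2KO without overlap (0.23, SE 0.10, adjusted p = 0.296, edgeR). Only Ndufs7, Ndufaf1 and Atp5s lay wholly above Tet2KO, and 0 members wholly below, against 9.61% and 10.1% of all genes tested.

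Against p300KO, the libraries labelled p300KO_Tet2KO had no called member, beside 0.56% of all genes, and a median log2 fold change of -0.098, with 20 of 86 members above 0, against 0.009 and 51.9% above 0 over all genes and -0.009 and 47.3% over those of like level. Here 12 members lay wholly below p300KO and 0 wholly above, against 6.51% and 7.65% of all genes. They were Sdhb, Sdhd, Ndufv2, Ndufb5, Ndufb8, Ndufs5, Ndufaf4, Uqcr10, Cox6b1, Atp5c1, Atp5f1 and Atp5k, and so came from all 5 complexes. At an unadjusted p under 0.05, 3 members were lower (Ndufs5, Ndufaf4 and Ndufs4) and 0 higher, beside 4.44% and 5.56% of all genes.

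Against WT, the same libraries had no called member, while 8.43% of all genes were called. The median over members was -0.03, with 34 of 86 above 0, against 0.02 and 53.3% above 0 over all genes and -0.01 and 47.6% over those of like level. At an unadjusted p under 0.05, 0 members were higher and 2 lower, beside 10.4% of all genes in each direction. Sdhb read 65.4, 64.3 and 69.8 CPM in WT and 57.5, 57.1 and 51.1 CPM in p300KO_Tet2KO without overlap, at a log2 fold change of -0.27 (SE 0.10, adjusted p = 0.128, edgeR). Of the other succinate dehydrogenase genes, the flavoprotein subunit Sdha differed by 0.00 (SE 0.13), and the membrane anchors Sdhc and Sdhd by -0.15 (SE 0.10) and -0.06 (SE 0.11). Sdhc and Ndufs5 were the other members wholly below WT, and Ndufa2, Ndufs7, Ndufb5 and Atp5s were wholly above, which made 3 and 4 members against 13.8% and 13.7% of all genes tested.

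**Figure D3:**
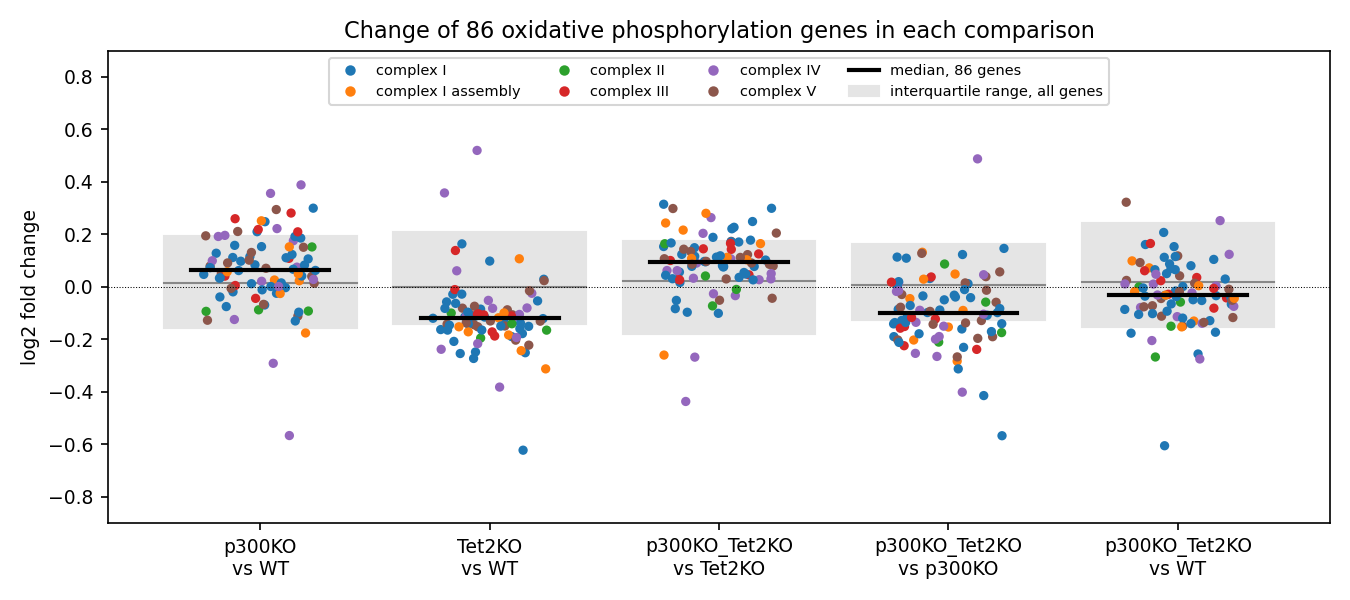
Log2 fold change of each of the 86 members tested in the 5 pairwise comparisons, coloured by complex, with the member median (black line) and, for all 17842 genes, the median (grey line) and interquartile range (grey box). Member medians run from -0.12 to 0.097 and no member exceeds a log2 fold change of 1 in size.

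The interaction, which asks whether the p300 difference depends on the Tet2 label, called 0 of 86 members and 0 of all genes (edgeR). At an unadjusted p under 0.05 there were 0 members, beside 7.11% of all genes, and the smallest adjusted p among members was 0.711, for Cox6b2 (-0.62, SE 0.30). DESeq2 and limma-voom also called 0 members.

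The intervals show what sizes these libraries leave room for. The 95% interval of the log2 fold change lay within 2-fold for 84 or 85 of the 86 members in each pairwise comparison and within 1.5-fold for 77 or 78, with a median SE of 0.124. The core subunits had narrow intervals. For Ndufs1, the largest core subunit of complex I, the p300KO difference from WT was -0.02 (SE 0.09) and the Tet2KO difference -0.08 (SE 0.09). Among other core genes the Tet2KO difference from WT was -0.12 for Ndufv1, -0.11 for Ndufv2, -0.12 for Ndufs3, -0.12 for Ndufs7 and -0.10 for Ndufs8. In complex III it was -0.11 for Uqcrc1 and for Uqcrc2 and -0.10 for the Rieske protein Uqcrfs1, and in complex V it was -0.14 for Atp5a1 and -0.20 for Atp5b. None of these was called, and each was smaller in size than the log2 range among the 3 Tet2KO libraries of the same gene.

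That spread within Tet2KO was shared by most of the module. Atp5b read 570, 711 and 732 CPM in Tet2KO and between 610 and 832 CPM in the other 9 libraries. Tet2KO replicate 1 held the lowest value of all 12 libraries for 57 of the 88 members (64.8%), against 13.5% of all genes tested. It lay below the members' own means over the 12 libraries for 80 of 88 genes. The median deviation was -0.29 on the log2 scale, while that over all genes was 0.02. Tet2KO replicate 1 was below replicate 2, and replicate 2 below replicate 3, in 70 of the 88 members. The high end was shared by WT replicate 3 (highest in 22 of 88 members), p300KO replicate 2 (23) and p300KO replicate 1 (20). Tet2KO replicate 1 had 56210721 counts in total and WT replicate 3 had 18838681. The part played by the Xist and Y-linked RNA in Tet2KO replicate 1, or by granulocyte and monocyte genes (3369, 2433 and 5333 CPM in the Tet2KO replicates), was not tested.

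**Figure D4:**
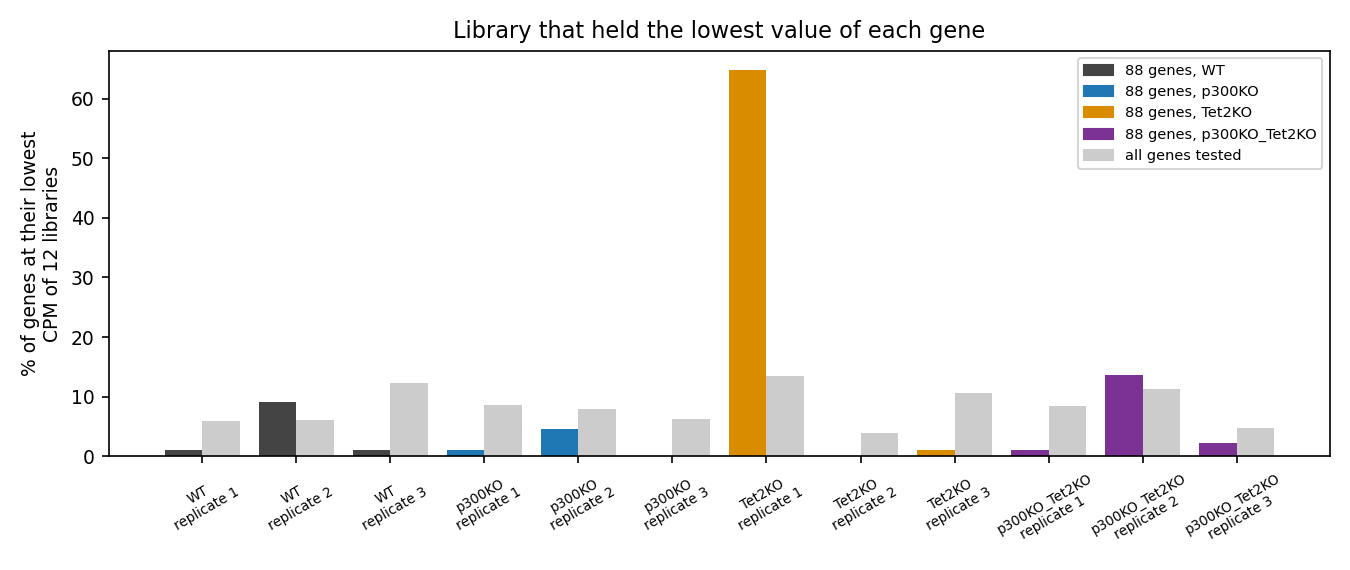
Percent of the 88 members (coloured by group) and of all genes tested (grey) whose lowest CPM of the 12 libraries fell in each library. Tet2KO replicate 1 held the lowest value of 64.8% of members and 13.5% of all genes.

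Averaged by complex, the same order returned. The mean log2 CPM over all 88 members was 5.39 ± 0.12 in WT, 5.45 ± 0.02 in p300KO, 5.27 ± 0.17 in Tet2KO and 5.37 ± 0.07 in p300KO_Tet2KO (SD, n = 3), and all 4 groups overlapped. Tet2KO replicate 1 was lowest, at 5.10, and WT replicate 3 highest, at 5.50, a 1.32-fold range. It was also lowest in complex I (4.92), complex I assembly (3.43), complex II (6.28), complex III (5.72), complex IV (4.55) and complex V (6.27). In complex IV, Tet2KO replicate 2 lay beside it at 4.56 and was the lower of the pair under total-count scaling or a prior count of 0.5. The range over the 12 libraries was 1.26-fold in complex IV and 1.32- to 1.37-fold in the other sets. The complex IV mean includes Cox4i2, Cox7a1 and Ndufa4l2, which averaged at most 0.697 CPM. Summed CPM of complex IV ran from 950 in Tet2KO replicate 1 to 1302 in WT replicate 3. The median range of its single genes was 1.61-fold, against 1.41- to 1.52-fold in the other sets. In complex III the p300KO mean was 6.12 ± 0.05 and the WT mean 5.98 ± 0.15, where WT replicate 3 (6.13) overlapped p300KO. With 3 libraries against 3, an exact two-sided permutation test of such a mean cannot go below p = 0.1, and none was run.

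**Figure D5:**
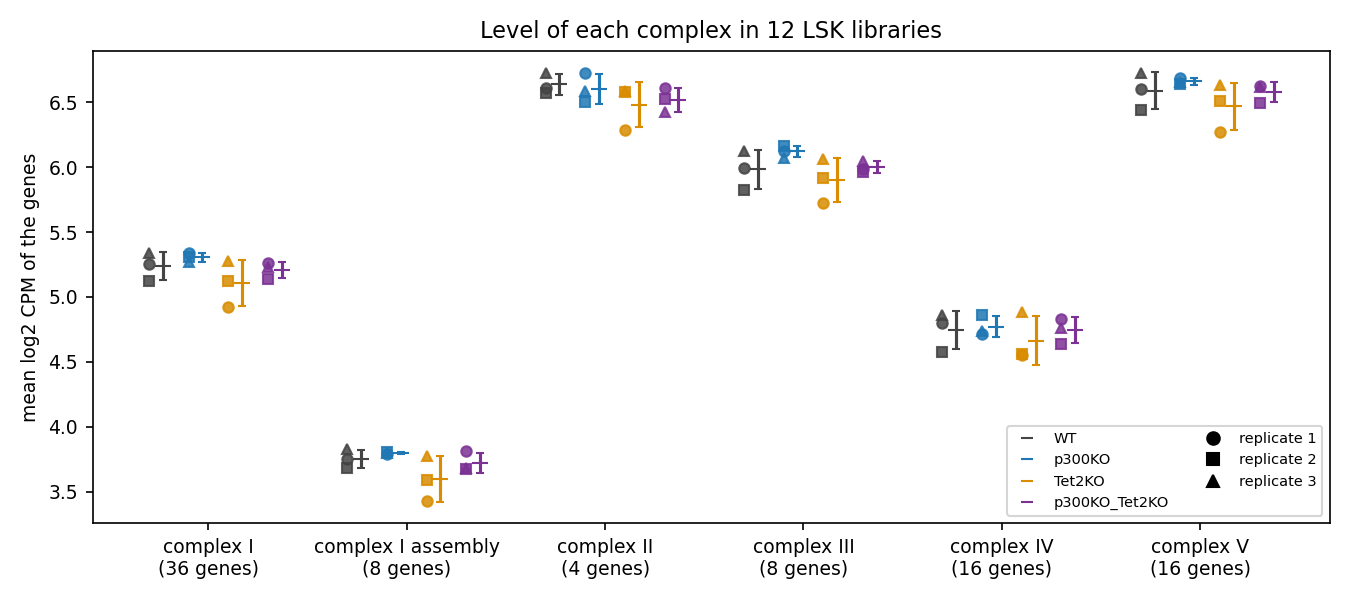
Mean log2 CPM of the genes of each complex in each of the 12 libraries (symbols mark the replicate), with the group mean and SD beside them. Tet2KO replicate 1 is lowest in all 6 sets, and p300KO has the smallest SD in complex I, complex I assembly, complex IV and complex V.

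The members did not vary less than comparable genes. Their median SD of log2 CPM over the 12 libraries was 0.169, against 0.152 in the 6924 genes of like level and 0.256 in all genes tested. For 80 of the 88 members the highest library was under 2-fold above the lowest, with a median range of 1.49-fold.

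The nuclear and mitochondrially encoded subunits differed in one library. In p300KO_Tet2KO replicate 2 the 13 mitochondrially encoded subunits summed to 4942 CPM, against 12374 to 15297 CPM in the other 11 libraries, while the 88 nuclear members summed to 6237 CPM there, within the 5302 to 7145 CPM of the others. That library held the lowest value of 12 nuclear members, among them Ndufb4, Cox7b, Ndufa4 and Atp5c1, and the highest value of 6, namely Ndufv1, Ndufs7, Ndufa2, Ndufaf7, Atp5sl and Uqcrc1. Ndufb4 read 6.71 CPM there and 8.05 to 14.5 CPM elsewhere. Tet2KO replicate 1, lowest for the nuclear genes, had 14072 CPM of mitochondrially encoded subunits, within the range of the others. The 13 mitochondrially encoded subunits had 0 called in any pairwise comparison (edgeR), and 0 at an unadjusted p under 0.05, with a median log2 fold change of -0.35 in p300KO_Tet2KO against Tet2KO. Without p300KO_Tet2KO replicate 2 that median was 0.03, with 7 of 13 above 0.

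Other genes of the pathway were taken from lists and read in the same fits. Of 77 mitochondrial ribosomal protein genes, 0 were called in any pairwise comparison, and the median was -0.14 in Tet2KO against WT, with 7 above 0 and 8 lower at an unadjusted p under 0.05, beside 5.52% of all genes. Their median was 0.11 in p300KO_Tet2KO against Tet2KO, with 68 above 0 and 5 higher at that p, beside 7.05% of all genes. Without Tet2KO replicate 1 these medians were -0.06, with 23 above 0, and 0.04, with 49 above 0. Of 18 genes of pyruvate dehydrogenase and the TCA cycle 0 were called, with a median of -0.10 and 0 at an unadjusted p under 0.05 in Tet2KO against WT. Also without a call were 43 other assembly factors, 9 genes of coenzyme Q synthesis and 11 genes of uncoupling and reactive oxygen defence. The same held for a list of 7 genes for electron carriers and cytochrome c1 of complex III. Each of 2 lists had 1 called gene, in comparisons that called 3.9% and 8.43% of all genes. Slc25a4, the adenine nucleotide carrier that exchanges ADP for ATP, was 1 of 10 carriers. It read 75.2, 84.2 and 75.4 CPM in Tet2KO and 110, 97.9 and 101 CPM in p300KO_Tet2KO, without overlap, and rose by 0.40 on the log2 scale (SE 0.09, adjusted p = 0.0305, edgeR). Leaving out any 1 of the 6 libraries but p300KO_Tet2KO replicate 2 ended that call, with adjusted p from 0.0519 to 0.116. Gabpb1, which encodes the beta partner of GABPA, was 1 of 19 genes of biogenesis and mitochondrial gene expression. It read 118, 105 and 125 CPM in WT and 89.7, 90.1 and 93.0 CPM in p300KO_Tet2KO, and was lower without overlap (log2 fold change -0.35, SE 0.09, adjusted p = 0.0355, edgeR). Leaving out any 1 of the 6 libraries but WT replicate 2 ended that call, with adjusted p from 0.0872 to 0.116, as did scaling by total counts (0.0566).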

How the data were processed

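Ribosomal RNA was depleted from total RNA of sorted LSK cells and libraries were sequenced as paired 100-base reads. The authors aligned reads to mm10 with STAR 2.6.0c and deposited expected counts per gene from RSEM 1.3.0; the annotation release is not given in the sources used here. The authors' own test used DESeq2 with RUVseq and spike-in controls, and the table used here holds 0 spike-in rows. RSEM divides reads among near-identical copies, so members with processed pseudogenes are less certain, and strand was not stated for the counting.

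Expected counts were rounded. Genes passed filterByExpr, TMM factors were applied, and 6 contrasts were tested over all 12 libraries with edgeR 4.0.16 (quasi-likelihood test, R 4.3.3, limma 3.58.1). A call required a Benjamini-Hochberg adjusted p under 0.05 among 17842 genes. CPM used TMM-scaled library sizes, and log2 CPM a prior count of 2. Total counts per library (18773903 to 79573664) set the counting precision. Alternatives included DESeq2 1.42.0, limma-voom, other scaling and filters, a Y-linked RNA covariate, replicate number as a block, and omission of each library in turn. The procedure was run on simulated data. Its pass rule for recovery concerned planted changes larger than any among the members, so it does not speak to changes of their size. Named genes were called members, the 5 highest and 5 lowest members of at least 5 CPM per comparison, core or alternative subunits by role, up to 4 called genes per list, or those with the 2 smallest p-values, and Ep300 and Tet2; of these, the ones with most bearing are given. The members and lists were chosen with earlier results of these data known. The values of 1 member are not reported here.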

Additional observations from a re-analysis of the deposited data

How the results depend on the processing

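The count of 0 called members held in each of the 6 tests under DESeq2 size factors, scaling by total counts, upper-quartile factors, no filter on low counts, a minimum of 1 CPM in 3 libraries, a fit of the compared libraries alone (all 12 for the interaction) and the Y-linked RNA covariate. It became 1 in p300KO_Tet2KO against WT under DESeq2 and under limma-voom, each time Ndufs5, in fits that called 11.2% and 9.56% of all genes, and the cause was not tested. Leaving out each library in turn gave 0 to 1 called members in p300KO against WT (Cox7a2 without WT replicate 3, where 3.66% of all genes were called), in p300KO_Tet2KO against Tet2KO (Ndufa2 without Tet2KO replicate 3, 4.29%) and in p300KO_Tet2KO against WT (Ndufs5 without p300KO_Tet2KO replicate 1, 6.62%), and 0 elsewhere. Leaving out Tet2KO replicate 1 and p300KO_Tet2KO replicate 2 together, an alternative chosen after seeing the data, gave 0 in the 5 tests that use them.

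Over these alternatives the member median stayed between 0.005 and 0.13 in p300KO against WT, -0.19 and -0.03 in Tet2KO against WT, 0.002 and 0.16 in p300KO_Tet2KO against Tet2KO and -0.13 and -0.07 in p300KO_Tet2KO against p300KO. It crossed 0 in p300KO_Tet2KO against WT (-0.09 to 0.03) and in the interaction (-0.07 to 0.11). Each extreme came from leaving out 1 or 2 libraries, and every shift was smaller than the 0.11 within-group SD of the member mean. The sign of individual uncalled members changed in up to 28 of 86.

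Same-numbered libraries of different groups correlated from -0.15 to 0.14 (median 0.03), and 5 of 18 such pairs exceeded 0.1. Differently numbered libraries correlated from -0.21 to 0.19 (median -0.01), and 4 of 36 pairs exceeded 0.1. These ranges overlapped, and replicate numbers were not treated as pairing the libraries. With the replicate block 0 members were called in each test, and the member median was 0.07 in p300KO against WT, -0.12 in Tet2KO against WT, 0.098 in p300KO_Tet2KO against Tet2KO, -0.11 in p300KO_Tet2KO against p300KO, -0.03 in p300KO_Tet2KO against WT and 0.03 in the interaction.

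Over all genes tested DESeq2 called 6.83% in p300KO against WT, 2.79% in Tet2KO against WT, 7.02% in p300KO_Tet2KO against Tet2KO, 1.97% in p300KO_Tet2KO against p300KO, 11.2% in p300KO_Tet2KO against WT and 0.275% in the interaction, where edgeR called 3.91%, 0.633%, 3.9%, 0.56%, 8.43% and 0. Of the list genes, Slc25a4 was also not called in a fit of the compared libraries alone (adjusted p = 0.081, edgeR) and Gabpb1 with upper-quartile factors (0.0619), the Y-linked RNA covariate (0.142) or the replicate block (0.0648), settings applied to these genes after seeing the data. Fits of the compared libraries alone called 0.314% in Tet2KO against WT and 1.88% in p300KO_Tet2KO against Tet2KO. The range of complex means over the libraries moved by less than the within-group SD with a prior count of 0.5 or total-count scaling, although complex IV was then lowest in Tet2KO replicate 2. At 3 libraries per group and a median SE of 0.124, differences the size of the member medians were not detectable gene by gene.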
